A study of Mus musculus with 9 samples.

Results

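The genes described here are 9 regulators of oxidative metabolism: the nuclear receptors Ppara, Ppard and Pparg, their partners Rxra and Rxrg, the coactivators Ppargc1a and Ppargc1b, and the mitochondrial factors Nrf1 and Tfam. They and the gene lists below were chosen by name, with earlier results of these data known. Every probe annotated to 1 of the 9 symbols was taken, which gave 15 probes out of 45281 on the array. Of these, 12 passed the detection filter and were tested, and each of the 9 genes had at least 1 tested probe, among 10800 genes tested in all. Transcript levels came from Illumina bead arrays of total RNA from mouse cells, with 3 arrays in each of 3 groups. The group CMa held cardiomyocytes purified from the left ventricle of mice 2 months old, CMp cardiomyocytes purified from the hearts of mice 1 day old, and mES undifferentiated embryonic stem cells of the source labelled mES_TBV2. Per the labels, all 3 groups were cultured and none was treated, and no genetic change is named for any of them. Heart region and age differ together between CMa and CMp and cannot be told apart. The labels call the arrays biological triplicates without naming animals or cultures, so the p-values speak only of how far these samples spread, which may be technical.

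Peroxisome proliferator-activated receptors (PPARs) are transcription factors that bind fatty acids and their derivatives. They act on DNA as pairs with a retinoid X receptor (RXR), and in heart muscle they are known for switching on genes of fatty acid uptake and burning. The PGC-1 proteins have no DNA-binding role of their own in this scheme: they dock on PPARs, on oestrogen-related receptors and on NRF1 and raise transcription of genes for mitochondria. NRF1, nuclear respiratory factor 1, is a nuclear factor for respiratory genes, and one of its classic targets is Tfam, which encodes the protein that packages mitochondrial DNA and starts its transcription.

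The members of this chain did not move together. In CMa against mES, 5 of the 9 genes were called higher (Ppara, Pparg, Ppargc1a, Ppargc1b, Rxrg) and 3 lower (Rxra, Nrf1, Tfam), at an adjusted p under 0.05 for the brightest tested probe of each gene. Over all genes tested, 36.3% were called higher and 39.8% lower in that comparison. In CMp against mES, 4 were called higher (Ppara, Pparg, Ppargc1a, Ppargc1b) and 2 lower (Rxra, Tfam), where 35.0% of all genes were called higher and 38.2% lower. In CMa against CMp, 3 were called higher (Ppara, Rxrg, Tfam) and 1 lower (Nrf1), where 25.3% of all genes were called higher and 24.8% lower. By the F-test of the same fit, 8 of the 9 differed among the groups, all but Ppard, against 87.2% of all genes. These shares of the 9 are near those of all genes, so what follows is about which genes moved and how far. Ppara, Pparg and Ppargc1a passed the detection filter through the cardiomyocyte arrays alone. Their difference from mES is therefore partly set by the filter, and the same holds for each list gene below that was detected on no mES array and is given with a lower bound.

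Levels are on the log2 scale, from background-corrected, quantile-normalized intensities (group values as mean ± SD, n = 3), and changes are log2 differences ± SE. A probe is called detected on an array at a detection p under 0.01. For a probe that a whole group failed to detect, the fold is a lower bound, written as at least. For it, each such array was set no lower than its dimmest detected probe. The bound holds within this processing only. For Ppara, Pparg and Ppargc1a in CMa against mES, the authors' deposited matrix gave changes below it. The level of a probe depends on its sequence, so levels are compared between groups and not between probes.

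Per array, 13781 to 17946 probes were detected (30.4% to 39.6%), and the 3 CMa arrays had the fewest. Cardiomyocyte markers were high on all CMa and CMp arrays, with a summed log2 level of 16.61 to 16.86 in CMa and 16.52 to 16.61 in CMp, against 7.84 to 8.13 in mES, and pluripotency markers were high in mES only, at 15.73 to 15.88, against 7.01 to 7.25 in CMa and 6.97 to 7.37 in CMp. Markers of other heart cells were present too: all 6 fibroblast markers and all 5 tested endothelial markers were lower in CMa than in CMp and higher in both than in mES. The array CMp 1 stood apart from its group, correlating at 0.951 and 0.952 with CMp 2 and CMp 3, which correlated at 0.994 with each other. Its deviations from the group mean ran with those of CMa 1 (0.44) and against those of CMa 3 (-0.541), whereas CMp 2 and CMp 3 deviated with CMa 3 (0.466 and 0.488). CMa against CMp is therefore also given within 2 sets of arrays, CMp 1 with CMa 1 and CMa 2, and CMp 2 and 3 with CMa 3, a split chosen after seeing the data. Scaling the arrays to a common median instead of quantile normalization lowered the median change of all genes to -0.78 in CMa against mES, -0.59 in CMp against mES and -0.20 in CMa against CMp, where it was -0.07, -0.09 and 0.01. The share of calls that were higher then was 28.8%, 33.8% and 32.6% in the same order, against 45.2%, 45.6% and 49.4%.

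Promoter sequences are shown for Tfam and for a pair of genes of mitochondrial DNA upkeep, Ssbp1 and Polrmt, because all 3 were lowest in CMp. That does not set them apart: most such genes described below were lowest in CMp, some of them without a motif match. Ppara is shown as the receptor that differed in every comparison. Each sequence is the RefSeq window of 300 bases around a start site in GRCm38.p6. It is read 5′ to 3′ on the gene's strand, with capitals marking motif matches on either strand. The motifs searched were CCGGAAG for the GABP family, GCGCA and GCGC with any 1 base between them for NRF1, TCAAGGTCA for oestrogen-related receptors, and AGGTCA repeated with any 1 base between the copies for a PPAR and RXR pair.
Tfam, chr10:71237995-71238294, minus strand: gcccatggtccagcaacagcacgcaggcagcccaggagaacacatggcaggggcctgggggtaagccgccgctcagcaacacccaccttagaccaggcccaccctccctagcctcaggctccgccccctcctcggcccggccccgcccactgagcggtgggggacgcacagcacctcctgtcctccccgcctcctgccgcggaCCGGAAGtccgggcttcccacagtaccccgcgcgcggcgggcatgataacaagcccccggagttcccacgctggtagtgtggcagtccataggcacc
Ssbp1, chr6:40471218-40471517, plus strand: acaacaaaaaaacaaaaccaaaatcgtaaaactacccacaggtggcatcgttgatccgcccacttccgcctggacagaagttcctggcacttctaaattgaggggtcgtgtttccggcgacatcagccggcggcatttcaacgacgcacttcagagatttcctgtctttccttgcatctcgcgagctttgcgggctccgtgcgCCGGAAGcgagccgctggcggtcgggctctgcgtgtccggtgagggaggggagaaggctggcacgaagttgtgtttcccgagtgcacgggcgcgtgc
Polrmt, chr10:79746532-79746831, minus strand: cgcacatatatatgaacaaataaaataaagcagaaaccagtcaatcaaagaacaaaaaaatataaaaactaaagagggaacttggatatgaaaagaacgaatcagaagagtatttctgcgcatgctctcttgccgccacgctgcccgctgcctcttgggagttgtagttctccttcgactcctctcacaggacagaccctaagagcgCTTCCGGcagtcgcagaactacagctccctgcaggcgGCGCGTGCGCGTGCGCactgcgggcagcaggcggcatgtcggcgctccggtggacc
Ppara, chr15:85735526-85735825, plus strand: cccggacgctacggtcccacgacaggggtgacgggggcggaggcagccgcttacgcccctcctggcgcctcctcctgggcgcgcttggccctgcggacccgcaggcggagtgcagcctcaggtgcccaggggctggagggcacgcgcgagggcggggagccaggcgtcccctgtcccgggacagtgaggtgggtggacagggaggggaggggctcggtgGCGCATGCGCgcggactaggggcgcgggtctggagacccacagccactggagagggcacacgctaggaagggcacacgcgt
The GABP letters start at -47 in both Tfam and Ssbp1 and at -43 in Polrmt, where the start site is 1. Polrmt also has a pair of NRF1 matches that overlap each other, starting at -6 and 1. Ppara has the NRF1 letters at -31.

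Promoter windows were found for 8 of the 9 genes (13 windows). Among them the GABP letters occurred in Tfam alone and the NRF1 letters in Ppara alone, and neither the oestrogen-related receptor letters nor the PPAR and RXR letters occurred. Of all 32851 windows, 8.86% hold the GABP letters, 4.6% the NRF1 letters, 0.423% the oestrogen-related receptor letters and 0.0396% the PPAR and RXR letters. A match is a description of the letters only, and a missing match says nothing about the factor.

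**Figure D1:**
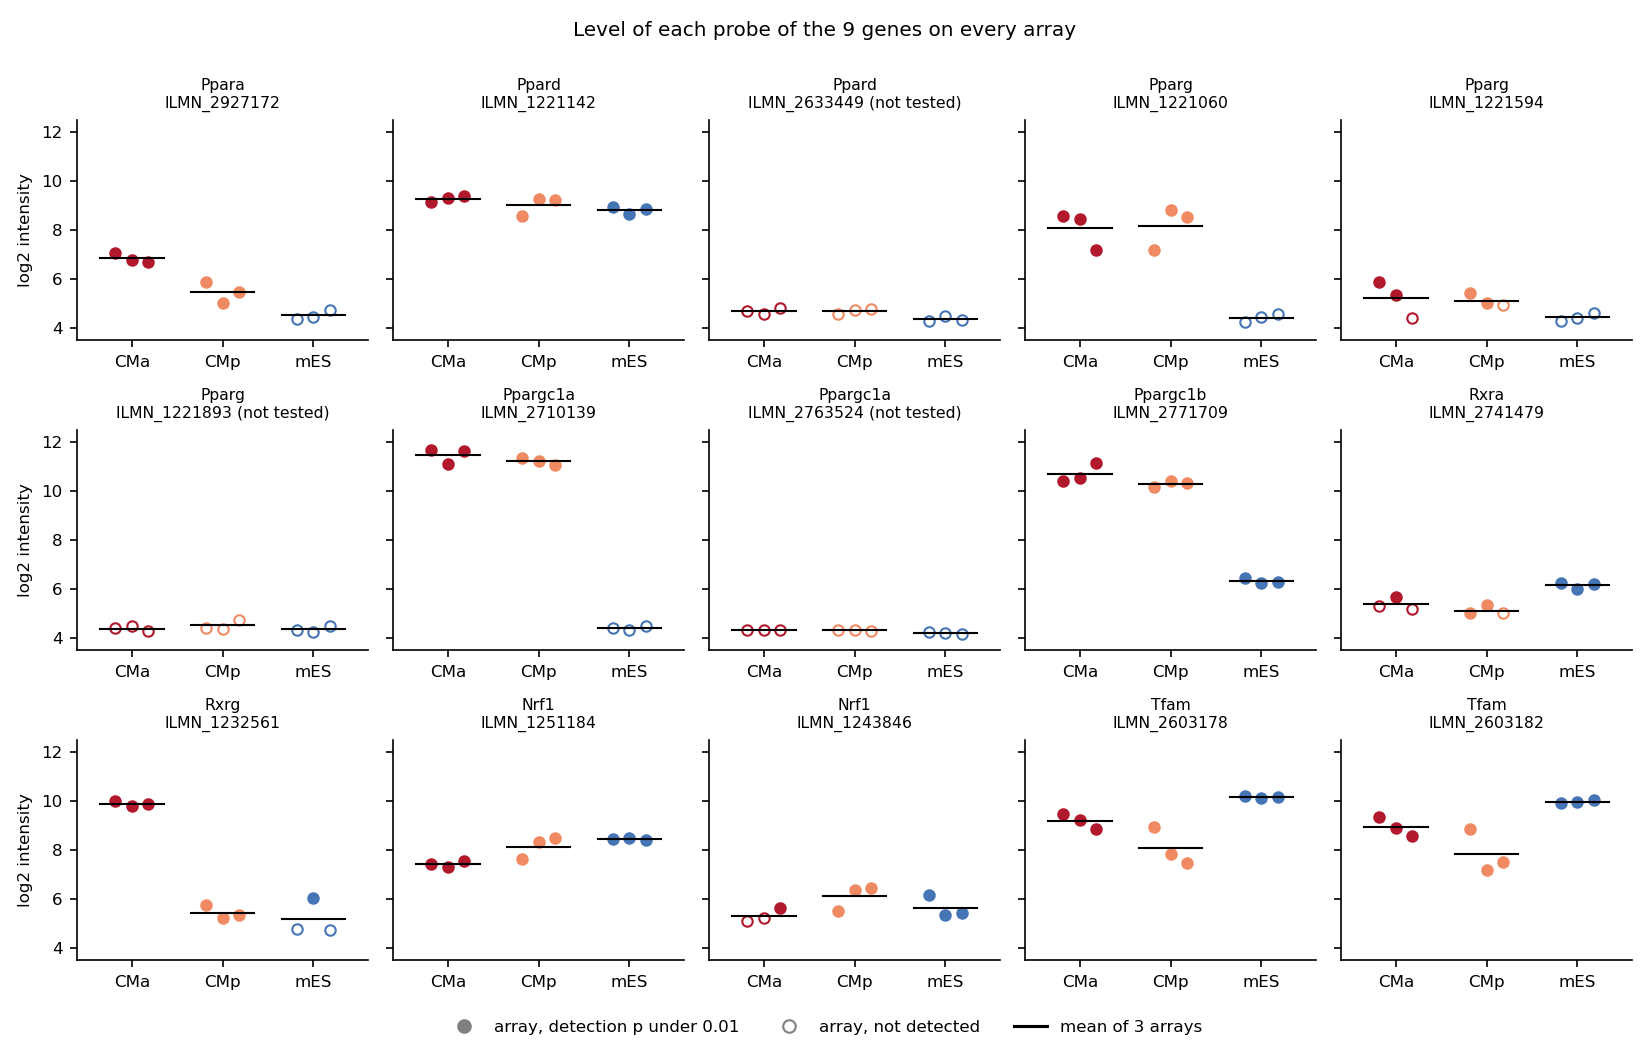
Log2 intensity (vertical axis) of all 15 probes of the 9 genes on each array, by group. Filled points are arrays on which the probe was detected, open points arrays on which it was not, and lines are means of 3 arrays. Ppargc1a (ILMN_2710139) sits at 11.05 to 11.68 on all 6 cardiomyocyte arrays and at 4.35 to 4.48 on the mES arrays, and Rxrg lies at 9.79 to 10.02 in CMa and at 6.05 or below on the other arrays.

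Ppara, the PPAR best known for fatty acid oxidation in heart and liver, was highest in CMa, lower in CMp and lowest in mES. Its probe (ILMN_2927172) read 7.08, 6.79 and 6.70 in CMa, 5.90, 5.01 and 5.47 in CMp, and 4.36, 4.47 and 4.76 in mES. The 3 groups did not overlap, and no mES array detected it. Ppara was 2.63-fold higher in CMa than in CMp (1.40 ± 0.23, adjusted p = 0.000765). It was at least 3.68-fold higher in CMa (2.33 ± 0.23, adjusted p = 6.78e-06) and at least 1.40-fold higher in CMp (0.93 ± 0.23, adjusted p = 0.00468) than in mES. The calls against mES are partly set by the filter. The scanner signals of CMp (144.3, 105.3 and 114.2) overlapped those of mES (100.1, 107.7 and 107.4), and in the authors' deposited matrix the change in CMp against mES was 0.16. Within both sets of arrays Ppara was higher in CMa than in CMp (1.06 and 1.53).

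Ppard, the most widely expressed PPAR, was detected on all 9 arrays at near-equal levels. Its tested probe (ILMN_1221142) read 9.16, 9.30 and 9.38 in CMa, 8.59, 9.29 and 9.22 in CMp, and 8.96, 8.64 and 8.88 in mES. CMp overlapped both other groups, and CMa lay above mES by less than the test's threshold. No comparison was called: 0.45 in CMa against mES (95% interval -0.01 to 0.91, adjusted p = 0.0721), 0.20 in CMp against mES (-0.26 to 0.66, adjusted p = 0.393) and 0.24 in CMa against CMp (-0.22 to 0.70, adjusted p = 0.366). The direction against mES depends on the scaling: with arrays scaled to a common median Ppard was lower in CMa (-0.52, adjusted p = 0.0275) and in CMp (-0.54, adjusted p = 0.0233), beside medians of all genes of -0.78 and -0.59. The calls also depend on CMp 1: without that array the changes against mES kept their sign and passed the test in CMa (0.45, adjusted p = 0.0179) and in CMp (0.43, adjusted p = 0.0391), as did CMa against mES with no background correction (0.39, adjusted p = 0.0492). The scanner signals before normalization were 458 to 611 on the 6 cardiomyocyte arrays and 749 to 930 on the mES arrays. A further Ppard probe (ILMN_2633449) was detected on 0 arrays and was not tested.

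Pparg, the adipocyte PPAR, which endothelial cells and macrophages also express, was present in both cardiomyocyte preparations and varied widely within each. Its brighter probe (ILMN_1221060) read 8.58, 8.44 and 7.21 in CMa, 7.19, 8.83 and 8.53 in CMp, and 4.26, 4.46 and 4.56 in mES, where it was detected on no array. CMa and CMp overlapped fully, with CMa 3 and CMp 1 well below the other 4 cardiomyocyte arrays. Against mES the level was at least 8.56-fold higher in CMa (3.65 ± 0.44, adjusted p = 2.8e-05) and at least 9.19-fold higher in CMp (3.75 ± 0.44, adjusted p = 2.76e-05). CMa and CMp did not pass the test (-0.10, 95% interval -1.09 to 0.88, adjusted p = 0.875). Within the sets of arrays the difference took opposite signs, 1.34 (adjusted p = 0.003) for CMp 1 with CMa 1 and 2, and -1.47 (adjusted p = 0.000929) for CMp 2 and 3 with CMa 3. No direction between the cardiomyocyte ages can be given for Pparg. The dimmer probe (ILMN_1221594) averaged 5.22 ± 0.76 in CMa, 5.12 ± 0.26 in CMp and 4.45 ± 0.16 in mES and passed the test in no comparison (adjusted p = 0.0525 in CMa against mES, 0.0859 in CMp against mES and 0.838 in CMa against CMp). Leaving out CMa 3 brought its changes against mES past the threshold, at 1.23 in CMa (adjusted p = 0.00128) and 0.71 in CMp (adjusted p = 0.0141), as did leaving out CMp 1 for CMa (0.76, adjusted p = 0.0419) and CMa 1 for CMp (0.71, adjusted p = 0.0372). Another probe (ILMN_1221893) was detected on 0 arrays.

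Because Pparg is expressed by other cell types of the heart, marker levels are given beside it. In bulk RNA, fewer cells of a type and less RNA per cell cannot be told apart. The 5 tested endothelial markers summed to 11.94, 12.26 and 11.72 in CMa, 13.39, 14.27 and 14.22 in CMp, and 8.50, 8.17 and 8.60 in mES (log2), and Kdr, a defining endothelial receptor, was detected on 0 arrays. Within each cardiomyocyte group, the array with the lowest Pparg level was also the one with the lowest endothelial sum, CMa 3 and CMp 1. Between the groups the endothelial sum was lower on every CMa array than on every CMp array, while Pparg overlapped. The leukocyte and macrophage markers (4 of 6 tested) summed to 8.23, 8.81 and 7.77 in CMa, 10.01, 9.31 and 9.30 in CMp, and 6.36 to 6.54 in mES. CMa 3, the CMa array lowest in Pparg, was also lowest in this sum, while CMp 1, the CMp array lowest in Pparg, was highest. Ptprc, the common leukocyte marker, was detected on 0 arrays. Of the adipocyte markers none passed the filter: Plin1, Cidec, Lep and Retn were detected on 0 arrays and Adipoq on 2, and Cfd had no probe under that symbol. The part of endothelial cells and of leukocytes in the Pparg level was not tested.

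**Figure D2:**
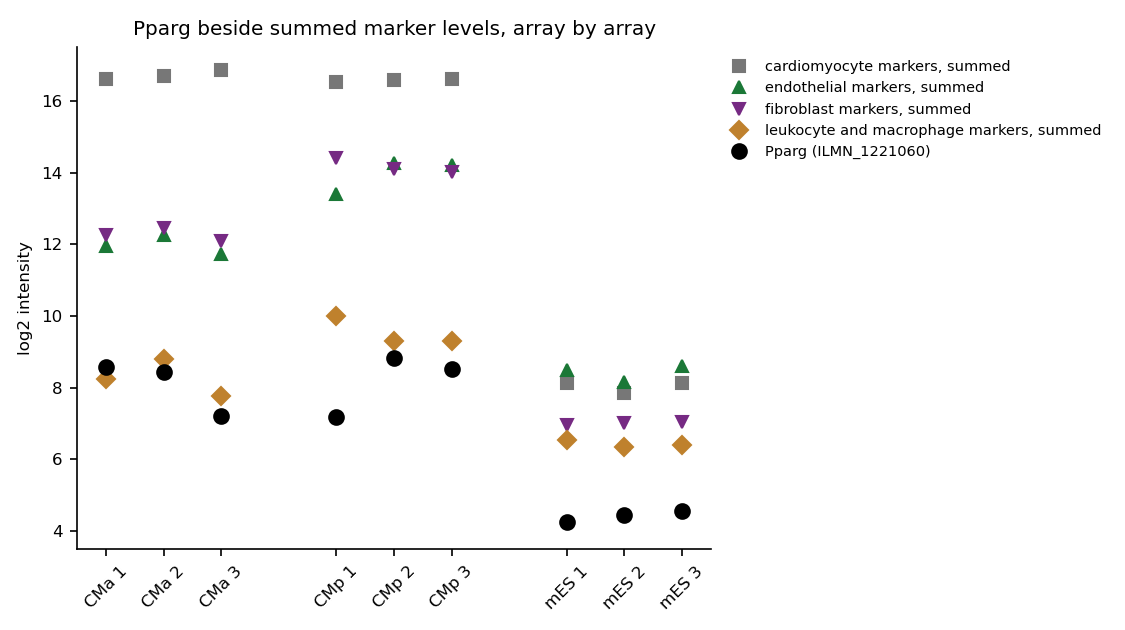
Log2 level (vertical axis) of Pparg (ILMN_1221060, black) and summed markers of 4 cell types on each of the 9 arrays. CMa 3 and CMp 1 are lowest in their groups for Pparg (7.21 and 7.19) and for endothelial markers (11.72 and 13.39), and all 3 CMa arrays lie below all CMp arrays in endothelial markers.

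The coactivator Ppargc1a, which encodes PGC-1α, was among the clearest differences between cardiomyocytes and stem cells. Its tested probe (ILMN_2710139) read 11.68, 11.10 and 11.62 in CMa, 11.36, 11.24 and 11.05 in CMp, and 4.42, 4.35 and 4.48 in mES. The scanner signals were 2902, 1845 and 2472 in CMa, 2417, 2021 and 1665 in CMp, and 98.1 to 103.5 in mES, where it was detected on no array. Ppargc1a was at least 89.7-fold higher in CMa (7.05 ± 0.19, adjusted p = 6.03e-10) and at least 75.6-fold higher in CMp (6.80 ± 0.19, adjusted p = 9.65e-10) than in mES. CMa and CMp overlapped and did not pass the test (0.25, 95% interval -0.17 to 0.66, adjusted p = 0.311). A 2-fold difference between the ages lies outside that interval. The size against mES depended on the processing: in the authors' deposited normalized matrix, the change in CMa against mES was 3.95. For the dimmer probes Ppara (ILMN_2927172) and Pparg (ILMN_1221060) it was 0.55 and 1.19 in that matrix. The settings behind the matrix are not known, so the part of a single processing step cannot be told from it. A further Ppargc1a probe (ILMN_2763524) was detected on 0 arrays.

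Ppargc1b, which encodes PGC-1β, showed the same order at a smaller size and was detected in stem cells too. Its probe (ILMN_2771709) read 10.40, 10.55 and 11.15 in CMa, 10.15, 10.43 and 10.32 in CMp, and 6.46, 6.25 and 6.28 in mES. It was 20.7-fold higher in CMa (4.37 ± 0.21, adjusted p = 2.34e-08) and 15.7-fold higher in CMp (3.97 ± 0.21, adjusted p = 7.11e-08) than in mES. In the authors' deposited matrix these changes were smaller, 2.83 and 2.46. CMa and CMp overlapped, with CMa 3 the highest array, and the difference was not called (0.40, 95% interval -0.06 to 0.86, adjusted p = 0.14), except under cyclic loess (0.57, adjusted p = 0.0472) and for CMp 2 and 3 with CMa 3 (0.74, adjusted p = 0.0114). Pprc1, the remaining gene of the coactivator family, went the other way: it was 10.1-fold lower in CMa (-3.33 ± 0.20, adjusted p = 1.38e-07) and 3.35-fold lower in CMp (-1.75 ± 0.20, adjusted p = 2.3e-05) than in mES, and 3.00-fold lower in CMa than in CMp (-1.59 ± 0.20, adjusted p = 0.000126).

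The RXR partners of the PPARs differed in kind. Rxrg, the RXR typical of striated muscle, was high on the CMa arrays: its probe (ILMN_1232561) read 10.02, 9.79 and 9.90 in CMa, 5.76, 5.22 and 5.36 in CMp, and 4.77, 6.05 and 4.73 in mES. Rxrg was 21.9-fold higher in CMa than in CMp (4.46 ± 0.32, adjusted p = 3.39e-06) and 26.4-fold higher than in mES (4.72 ± 0.32, adjusted p = 3.61e-07), without overlap. In the authors' deposited matrix these changes were 2.32 and 2.35. CMp and mES overlapped (0.26, 95% interval -0.45 to 0.98, adjusted p = 0.479). That comparison rests on mES 2, the 1 mES array on which Rxrg was detected: without it CMp was higher (0.68, adjusted p = 0.0143).

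Rxra, the RXR usually paired with PPARα in liver and heart, was lower in cardiomyocytes than in mES by a probe that was dim in all groups. Its probe (ILMN_2741479) read 5.30, 5.66 and 5.20 in CMa, 5.01, 5.36 and 5.01 in CMp, and 6.25, 6.01 and 6.23 in mES. It was detected on 1 of 3 CMa, 2 of 3 CMp and 3 of 3 mES arrays. Rxra was 1.71-fold lower in CMa (-0.78 ± 0.18, adjusted p = 0.00285) and 2.05-fold lower in CMp (-1.03 ± 0.18, adjusted p = 0.000483) than in mES, and CMa and CMp overlapped (0.26, adjusted p = 0.274). In the authors' deposited matrix the changes against mES were smaller, -0.17 in CMa and -0.22 in CMp. Rxrb, the remaining RXR, averaged 9.96 in CMa, 9.64 in CMp and 9.78 in mES and was called in no comparison (adjusted p = 0.435 in CMa against mES, 0.561 in CMp against mES and 0.227 in CMa against CMp).

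Nrf1 was lowest in CMa. Its brighter probe (ILMN_1251184) read 7.44, 7.33 and 7.56 in CMa, 7.63, 8.33 and 8.48 in CMp, and 8.46, 8.51 and 8.40 in mES. CMa lay below both other groups, and CMp overlapped mES through CMp 3. Nrf1 was 2.02-fold lower in CMa than in mES (-1.02 ± 0.22, adjusted p = 0.00162) and 1.63-fold lower in CMa than in CMp (-0.70 ± 0.22, adjusted p = 0.0225), and CMp against mES was not called (-0.31, 95% interval -0.80 to 0.17, adjusted p = 0.217), except with CMp 1 as the only CMp array (-0.84, adjusted p = 0.00593) and with arrays scaled to a common median (-0.99, adjusted p = 0.000631). The difference between CMa and CMp was no longer called without CMa 1, CMa 2, CMp 2 or CMp 3 (-0.70 to -0.54, adjusted p = 0.0524 to 0.0929), and it was -0.25 (adjusted p = 0.398) for CMp 1 with CMa 1 and 2 and -0.85 (adjusted p = 0.00539) for CMp 2 and 3 with CMa 3. The dimmer probe (ILMN_1243846) averaged 5.33 ± 0.28 in CMa, 6.11 ± 0.52 in CMp and 5.66 ± 0.45 in mES and was not called (adjusted p = 0.346 in CMa against mES, 0.201 in CMp against mES and 0.0558 in CMa against CMp). Without CMp 1 that probe was called lower in CMa than in CMp (-1.07, adjusted p = 0.0053) and higher in CMp than in mES (0.75, adjusted p = 0.0227), and without CMa 3 or mES 1 it was lower in CMa than in CMp (-0.96 and -0.76, adjusted p = 0.0437 and 0.0444).

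The authors' deposited normalized matrix lists the values of these Nrf1 probes under each other's identifier. Over the 9 arrays the scanner values of ILMN_1251184 correlated at 1.0 with the matrix entry ILMN_1243846 and at 0.606 with the entry of its own name. Under its own name the matrix gave Nrf1 a change of -0.07 in CMa against mES (adjusted p = 0.468), and under the other name -0.58 (adjusted p = 0.00257). Each other tested probe of the 9 genes correlated with its own entry at 0.983 or more. Which identifier is right for which values could not be settled, so the Nrf1 results hold for the probe names of the scanner table.

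Tfam was highest in stem cells and lowest in neonatal cardiomyocytes. Its brighter probe (ILMN_2603178) read 9.49, 9.25 and 8.87 in CMa, 8.93, 7.83 and 7.48 in CMp, and 10.20, 10.12 and 10.15 in mES. Both cardiomyocyte groups lay below mES, and CMa overlapped CMp through CMp 1. Tfam was 1.94-fold lower in CMa (-0.95 ± 0.33, adjusted p = 0.0219) and 4.22-fold lower in CMp (-2.08 ± 0.33, adjusted p = 0.000216) than in mES, and 2.18-fold higher in CMa than in CMp (1.13 ± 0.33, adjusted p = 0.0163). The other probe (ILMN_2603182) gave -1.03, -2.13 and 1.10 for the same comparisons (adjusted p = 0.029, 0.000477 and 0.0335), and its calls in CMa against mES and CMa against CMp were lost without the detection filter (adjusted p = 0.0824 and 0.0951). The CMa against CMp call of that probe was also lost with arrays scaled to a common median (adjusted p = 0.116), in the authors' matrix (adjusted p = 0.061) and without CMa 1, CMa 2, CMp 2, CMp 3, mES 2 or mES 3 (adjusted p = 0.0507 to 0.128), and its CMa against mES call without CMa 2, CMa 3 or any mES array (adjusted p = 0.0582 to 0.1). The difference between CMa and CMp was 0.45 (adjusted p = 0.147) for CMp 1 with CMa 1 and 2, 1.22 (adjusted p = 0.00174) for CMp 2 and 3 with CMa 3, and 1.56 (adjusted p = 0.000135) with CMp 1 left out. It was lost without CMa 1, CMp 2 or CMp 3 (0.83 to 1.01, adjusted p = 0.0584 to 0.0633) and with arrays scaled to a common median (0.85, adjusted p = 0.0654), and that of CMa against mES without CMa 3 or any mES array (adjusted p = 0.0508 to 0.0801).

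**Figure D3:**
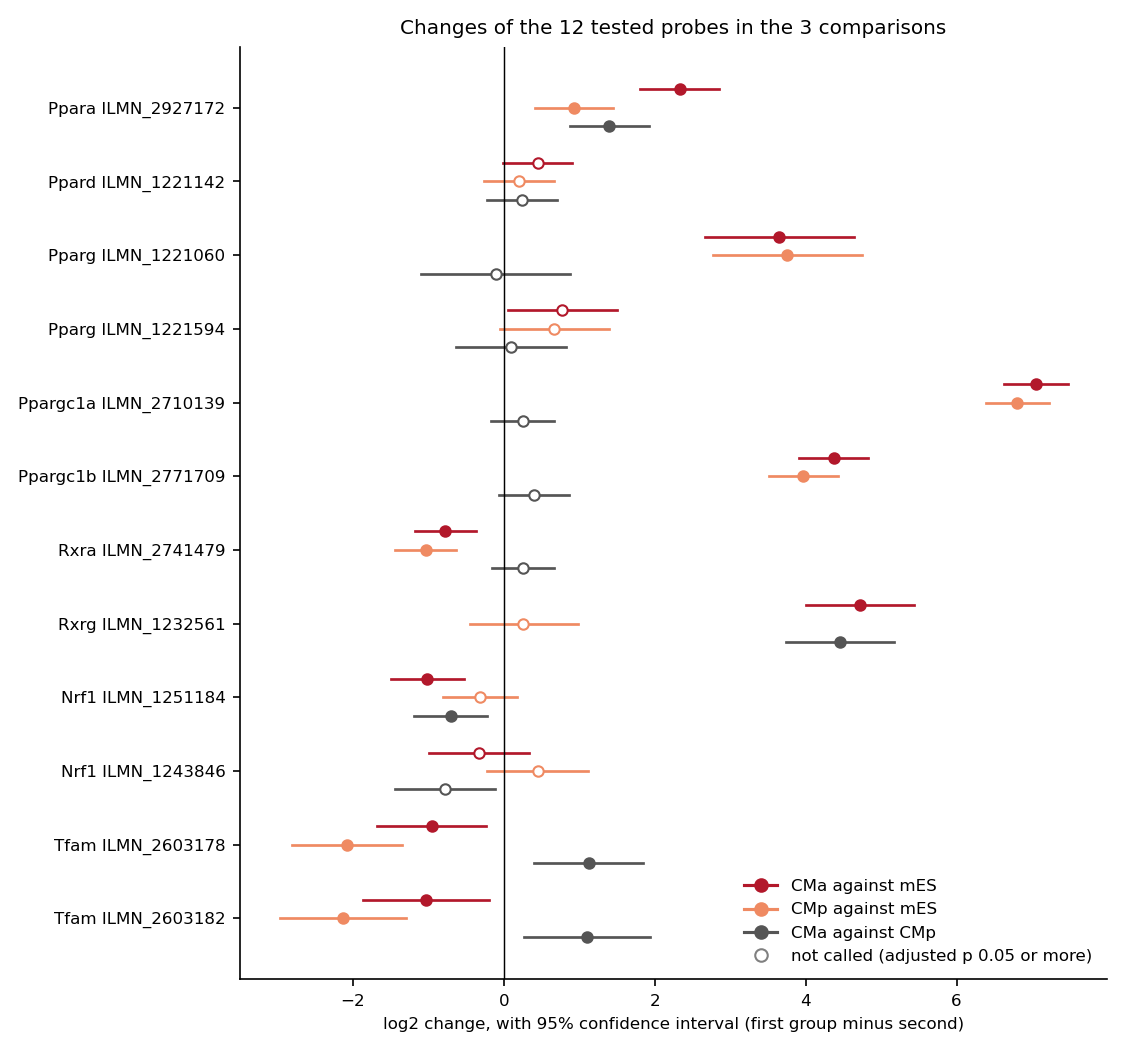
Log2 change (horizontal axis) with its 95% confidence interval for the 12 tested probes in 3 comparisons, the first group minus the second. Filled points passed the test. Ppargc1a, Ppargc1b and Pparg (ILMN_1221060) lie far to the right against mES and near 0 in CMa against CMp, Rxrg is far to the right only where CMa is compared, and Tfam is left of 0 against mES and right of 0 in CMa against CMp.

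Genes that work beside Tfam on mitochondrial DNA were mostly lower in CMp than in both other groups. Of 22 genes for its transcription, replication and nucleotide supply, 20 were tested, and CMa against CMp called 18 higher and 0 lower, with a median change of 1.08, where the median of all genes was 0.01. In CMp against mES, 16 were lower and 1 higher (median -1.02, all genes -0.09). In CMa against mES, 7 were lower and 5 higher (median 0.03, all genes -0.07). Of all genes, CMa against mES called 36.3% higher and 39.8% lower, CMp against mES 35.0% and 38.2%, and CMa against CMp 25.3% and 24.8%. The comparisons share arrays: a low value on the CMp arrays lowers the one and raises the other, so the counts are not independent of each other. CMa against CMp called 13 of the 20 higher within the set with CMp 1 and 17 within the other, and 13 with arrays scaled to a common median, with which CMa against mES had 15 lower and 2 higher. In CMa against mES, 3 were higher in place of 5 without CMa 1, CMa 2, mES 1 or mES 3.

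Among them Mterf2, a regulator of mitochondrial transcription, was 5.91-fold higher in CMa than in CMp (2.56 ± 0.21, adjusted p = 8.49e-06), at 8.51, 7.82 and 7.74 in CMa against 5.59, 5.55 and 5.24 in CMp. Tefm, the mitochondrial elongation factor, was 4.71-fold higher in CMa than in CMp (2.24 ± 0.25, adjusted p = 4.89e-05) and Rrm2b, a ribonucleotide reductase subunit, 3.42-fold higher (1.77 ± 0.18, adjusted p = 3.13e-05). Rrm2b was also the 1 gene of the list called higher in CMp than in mES (1.63 ± 0.18, adjusted p = 1.83e-05). Tfb1m, a methyltransferase of mitochondrial ribosomal RNA, was 7.61-fold lower in CMp than in mES (-2.93 ± 0.20, adjusted p = 5.71e-07). Mterf1a, another factor of the Mterf family, and Rnaseh1, which removes RNA from RNA and DNA hybrids, were lower too in CMp than in mES (-2.86 and -2.56, adjusted p = 1.79e-05 and 4.68e-07). Tfb2m, which with Tfam and the polymerase Polrmt starts mitochondrial transcription, was 2.27-fold higher in CMa than in mES (1.18 ± 0.24, adjusted p = 0.000981) and 3.00-fold higher in CMa than in CMp (1.58 ± 0.24, adjusted p = 0.000348), and was not called in CMp against mES (-0.40, adjusted p = 0.15). In CMa against mES, Dguok (0.72), Lonp1 (0.38), Mterf2 (1.78) and Rrm2b (3.41) were the other genes called higher.

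Ssbp1, the single-strand binding protein of mitochondrial DNA, read 9.97, 9.60 and 9.49 in CMa, 8.91, 8.38 and 8.46 in CMp, and 10.66, 10.61 and 10.33 in mES, and Polrmt 10.14, 10.29 and 10.84 in CMa, 8.85, 9.29 and 9.43 in CMp, and 10.30, 10.25 and 10.39 in mES. In both genes, as in Tfam and most of the list, CMp was lowest. Of the 16 genes of the list with a promoter window, 10 held the GABP letters shown above (Mterf1a, Mterf4, Polg, Polg2, Polrmt, Slirp, Ssbp1, Tefm, Tk2 and Twnk) and 1, Polrmt, the NRF1 letters. Tfb1m, Tfb2m, Mterf2, Dguok, Lonp1 and Lrpprc held none of the motifs searched and had their lowest mean in CMp too. Over all 27025 genes with a window, 9.93% held the GABP letters and 5.19% the NRF1 letters.

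**Figure D4:**
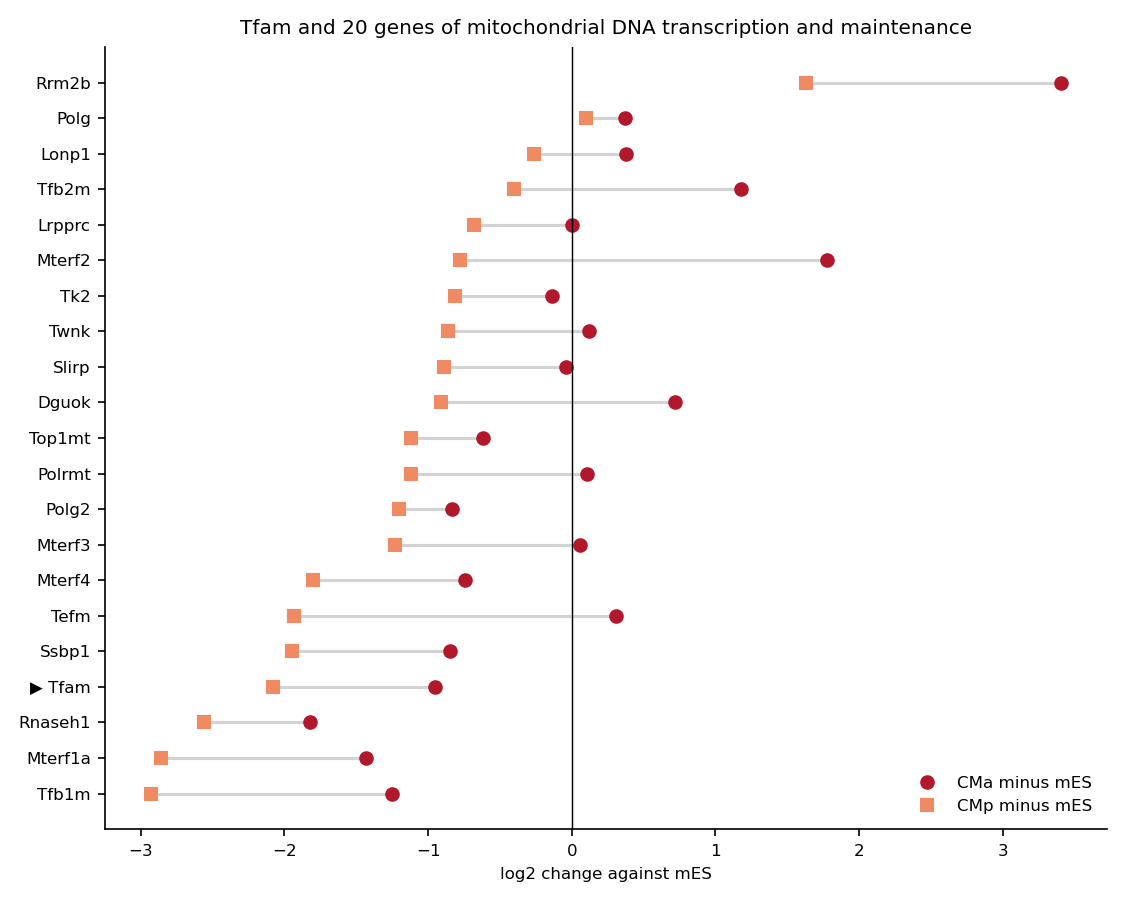
Log2 change against mES (horizontal axis) of Tfam and the 20 tested genes of mitochondrial DNA transcription and maintenance, in CMa (circles) and CMp (squares), ordered by the CMp change. The CMa value lies to the right of the CMp value for every gene shown, with Tfam at -0.95 in CMa and -2.08 in CMp, and Rrm2b farthest to the right at 3.41 in CMa.

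The DNA-binding partners of the coactivators went both ways. Among the oestrogen-related receptors, which bind PGC-1α without a known natural ligand, Esrra and Esrrg were higher and Esrrb lower in cardiomyocytes than in mES: Esrra was 14.8-fold higher in CMa (3.88 ± 0.19, adjusted p = 3.06e-08) and 6.68-fold higher in CMp (2.74 ± 0.19, adjusted p = 5.48e-07) than in mES, and 2.21-fold higher in CMa than in CMp (1.14 ± 0.19, adjusted p = 0.000722). Esrrg, detected on no mES array, was at least 24.8-fold higher in CMa (5.22 ± 0.22, adjusted p = 9.12e-09) and at least 5.52-fold higher in CMp (3.06 ± 0.22, adjusted p = 6.02e-07). Esrrb, a factor of the pluripotency network, was lower in CMa (-3.12 ± 0.18, adjusted p = 8.51e-08) and in CMp (-5.04 ± 0.18, adjusted p = 4.37e-09) than in mES. Gabpa, the DNA-binding subunit of GABP, fell to 6.39 in CMa and 6.52 in CMp, against 8.03 in mES (-1.65 ± 0.17, adjusted p = 7.19e-06, and -1.52 ± 0.17, adjusted p = 1.66e-05), and CMa and CMp were not told apart (-0.13, adjusted p = 0.567). Sp1, a general activator, was called lower in all 3 comparisons, and Myc was lower in CMa than in CMp (at least 1.73-fold, adjusted p = 0.007). Myc read 7.51, 5.55 and 5.64 in CMp, and 4.35, 4.28 and 4.57 in CMa, where no array detected it. The size of that difference thus rests largely on CMp 1. Of the 8 tested partner factors, CMa against mES called 2 higher and 5 lower (median -1.61) and CMp against mES 2 higher and 4 lower (median -0.63). CMa against CMp called 3 of the 8 higher and 2 lower (median -0.22). Of all genes, CMa against mES called 36.3% higher and 39.8% lower, CMp against mES 35.0% and 38.2%, and CMa against CMp 25.3% and 24.8%.

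Of 12 tested coactivators and corepressors, CMa against mES called 3 higher and 4 lower (median -0.05), CMp against mES 4 higher and 2 lower (median 0.08), and CMa against CMp 3 higher and 5 lower (median -0.39), where the medians of all genes were -0.07, -0.09 and 0.01. These 12 thus had no larger share of calls against mES than all genes, of which 36.3% were higher and 39.8% lower in CMa and 35.0% and 38.2% in CMp. In CMa against CMp, 25.3% of all genes were called higher and 24.8% lower, a smaller share lower than among the 12. In CMp against mES, 4 were lower without CMp 1, and with arrays scaled to a common median 8 were lower in CMa and 6 in CMp than in mES. Perm1, a muscle regulator that acts with PGC-1 and the oestrogen-related receptors, read 12.76, 12.84 and 13.26 in CMa, 10.94, 11.23 and 11.29 in CMp, and 4.43, 4.33 and 4.58 in mES. Perm1 was at least 251-fold higher in CMa and at least 72.1-fold higher in CMp than in mES (adjusted p = 1.9e-10 and 9.65e-10), and 3.49-fold higher in CMa than in CMp (1.80 ± 0.19, adjusted p = 3.17e-05). Lpin1, a phosphatidate phosphatase that also coactivates PPARα, was 8.85-fold higher in CMa than in CMp (3.15 ± 0.22, adjusted p = 2.87e-06) and Kat2b, an acetyltransferase, 2.08-fold (1.05 ± 0.33, adjusted p = 0.0232). Kat2b read 7.47, 7.59 and 7.29 in CMa and 7.33, 5.83 and 6.04 in CMp, so CMp 1 lay within the CMa range and CMp 2 and 3 below it. Kat2a, the acetyltransferase known to inhibit PGC-1α, was 3.88-fold lower in CMp than in mES (-1.96 ± 0.17, adjusted p = 3.51e-06).

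Of 11 tested kinases and factors upstream of PGC-1, CMa against mES called 7 higher and 2 lower (median 1.46), CMp against mES 6 higher and 1 lower (median 0.51), and CMa against CMp 5 higher and 1 lower (median 0.40). The last counts rest on single arrays: 2 were higher without CMa 2 or CMa 3, 3 without CMp 1, mES 1 or mES 3, and 0 were lower without CMa 2 and 2 without CMp 1. In CMp against mES, 2 were lower without CMa 1 or CMa 3. Of all genes, CMa against mES called 36.3% higher and 39.8% lower, CMp against mES 35.0% and 38.2%, and CMa against CMp 25.3% and 24.8%. Mef2c, a muscle transcription factor, was at least 40.6-fold higher in CMa (5.67 ± 0.28, adjusted p = 3.61e-08) and at least 53.2-fold higher in CMp (6.06 ± 0.28, adjusted p = 3.32e-08) than in mES. Prkaa2, the muscle catalytic subunit of AMP-activated kinase, was 13.7-fold higher in CMa (3.78 ± 0.27, adjusted p = 4.99e-07) and 8.01-fold higher in CMp (3.00 ± 0.27, adjusted p = 3.69e-06). Creb1, a cAMP-responsive activator, moved against this list and was lower in CMa than in mES (at least 1.51-fold, adjusted p = 0.00533) and CMp (at least 1.39-fold, adjusted p = 0.0183), as was Atf2 in CMa and CMp against mES (-0.86 ± 0.15 and -0.87 ± 0.15, adjusted p = 0.000391 and 0.000409).

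Other receptors that pair with RXR changed singly. Of 8 tested, CMa against mES called 4 higher and 2 lower (median 0.56) and CMp against mES 4 higher and 1 lower (median 0.44). CMa against CMp called 2 of the 8 higher and 3 lower (median 0.29), with 1 higher without CMa 2, CMp 2 or CMp 3. Of all genes, CMa against mES called 36.3% higher and 39.8% lower, CMp against mES 35.0% and 38.2%, and CMa against CMp 25.3% and 24.8%. What follows is therefore about single receptors. Rarb, a retinoic acid receptor, was at least 8.52-fold higher in CMa and at least 4.40-fold higher in CMp than in mES (adjusted p = 6.51e-06 and 7.88e-05), while Rarg, another, was 2.98-fold lower in CMa and 4.87-fold lower in CMp (-1.58 ± 0.24 and -2.28 ± 0.24, adjusted p = 0.00015 and 1.14e-05). Nr1h3, the liver X receptor α, was detected on all CMa arrays and on no other array, at least 3.58-fold higher in CMa than in CMp (adjusted p = 4.48e-06). It passed the filter through CMa alone, which partly sets that difference. Nr4a2, an immediate early gene, detected on 1 of 3 CMa arrays, was 7.56-fold lower in CMa than in CMp (-2.92 ± 0.24, adjusted p = 6.65e-06).

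The genes that PPARs are known to switch on were higher in cardiomyocytes than in mES almost throughout. Of all genes, CMa against mES called 36.3% higher and 39.8% lower, CMp against mES 35.0% and 38.2%, and CMa against CMp 25.3% and 24.8%. Of 30 PPAR target genes of fatty acid uptake, storage and oxidation, 23 were tested. CMa against mES called 21 higher and 1 lower (median 4.21), CMp against mES 21 higher and 0 lower (median 3.22), and CMa against CMp 14 higher and 3 lower (median 0.95), or 9 higher within the set with CMp 1 and 14 within the other. Cpt1b, which carries fatty acids into mitochondria, was 200-fold higher in CMa (7.65 ± 0.28, adjusted p = 3.94e-09) and 119-fold higher in CMp (6.89 ± 0.28, adjusted p = 1.09e-08) than in mES, where it was detected on 1 of 3 arrays. Against mES, Lpl, the lipase of blood lipids, was 225-fold higher in CMa and 90.7-fold higher in CMp. Plin5, a lipid droplet protein of oxidative tissue, read 11.19, 11.02 and 11.14 in CMa against 8.65, 8.98 and 8.92 in CMp, without overlap (2.27 ± 0.15, adjusted p = 2.13e-06). Pdk4, which shuts off pyruvate oxidation, was higher in CMa and CMp than in mES (5.24 and 4.99) and not called in CMa against CMp (0.25, adjusted p = 0.351).

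The 3 targets called lower in CMa than in CMp were Angptl4, a secreted inhibitor of Lpl, Acot1, a cytosolic thioesterase, and Hadha, a subunit of the trifunctional protein. Angptl4 read 6.91, 7.44 and 7.32 in CMa, 10.03, 11.18 and 10.89 in CMp, and 8.68, 8.80 and 8.98 in mES. It was thus lower in CMa than in CMp (-3.47 ± 0.28, adjusted p = 6.69e-06) and than in mES (-1.60 ± 0.28, adjusted p = 0.000423), the 1 target lower in CMa than in mES, where 2 were lower without mES 2. Acot1 was 4.02-fold lower in CMa than in CMp (-2.01 ± 0.25, adjusted p = 0.000124) and Hadha 2.56-fold lower (-1.35 ± 0.20, adjusted p = 0.000325). Hadhb, the other subunit of the trifunctional protein, was higher in CMa than in CMp (1.01, adjusted p = 0.000533). The Hadha probe was dim, averaging 6.70 in CMa, 8.05 in CMp and 5.09 in mES, and that of Hadhb averaged 13.99, 12.98 and 10.11. The opposite directions rest on 1 probe for each gene, and whether the subunits part was not tested. Of 13 PPARγ targets known from adipose tissue, only Cidea, Gpd1 and Lipe passed the filter. Cidea, a lipid droplet protein, was 30.6-fold higher in CMa and 23.8-fold higher in CMp than in mES (adjusted p = 3.18e-08 and 8.35e-08), where it was detected on 1 of 3 arrays. Gpd1, a glycerol phosphate dehydrogenase, was at least 3.55-fold higher in CMa than in mES (adjusted p = 1.62e-05), and Lipe, the hormone-sensitive lipase, likewise detected on 1 mES array, 1.81-fold (0.86 ± 0.19, adjusted p = 0.00177).

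Nuclear genes of the respiratory chain, targets of the NRF1 and GABP branch, were mostly called higher in both cardiomyocyte groups than in mES. Of 26 tested, CMa against mES called 23 higher and 1 lower (median 1.99), CMp against mES 24 higher and 0 lower (median 1.43), and CMa against CMp 15 higher and 1 lower (median 0.47). The last count was 7 without CMp 2 or without CMp 3, 4 within the set with CMp 1 and 12 within the other. Of all genes, CMa against mES called 36.3% higher and 39.8% lower, CMp against mES 35.0% and 38.2%, and CMa against CMp 25.3% and 24.8%. Cycs, cytochrome c, was 4.98-fold higher in CMa (2.32 ± 0.14, adjusted p = 1.38e-07) and 3.59-fold higher in CMp (1.85 ± 0.14, adjusted p = 1.02e-06) than in mES, and 1.39-fold higher in CMa than in CMp (0.47 ± 0.14, adjusted p = 0.0182). Cox7b, a cytochrome oxidase subunit, was 11.8-fold higher in CMa and 4.60-fold higher in CMp than in mES (adjusted p = 3.19e-07 and 1.54e-05). Cox6a1, the subunit form of non-muscle tissue, was the 1 gene called lower, in CMa against CMp and in CMa against mES (-1.31 ± 0.18 and -0.67 ± 0.18, adjusted p = 0.000244 and 0.00727).

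**Figure D5:**
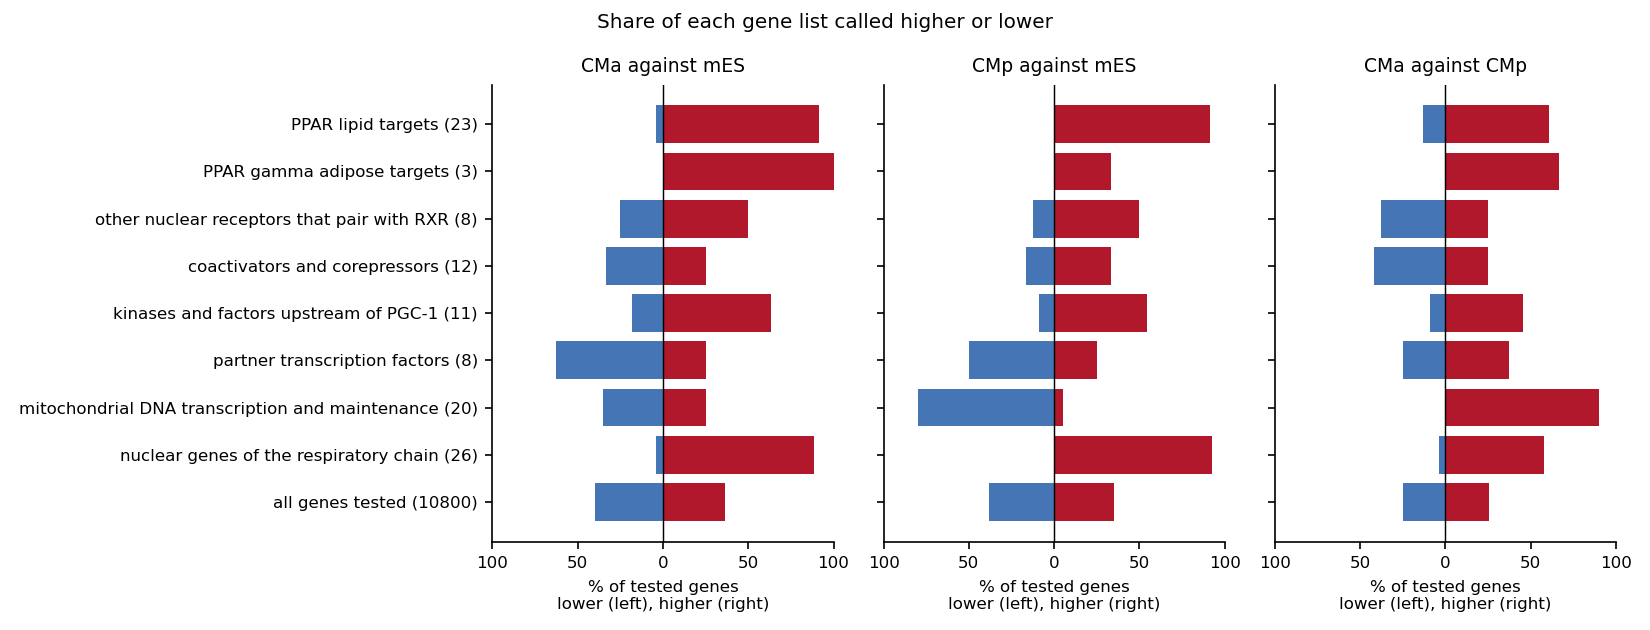
Share of the tested genes of each list (horizontal axis, percent) called higher (right, red) or lower (left, blue) in 3 comparisons, with the number tested in brackets and all 10800 genes at the bottom. PPAR lipid targets and respiratory chain genes reach far to the right against mES, and genes of mitochondrial DNA upkeep point left in CMp against mES and right in CMa against CMp.

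For each of the 8 genes that differed among the groups, the 3 genes with the most similar profile were found by the root mean square difference of log2 values, each gene centred on its own mean over the 9 arrays. For Ppara these were Echs1, an enzyme of fatty acid oxidation (0.137), 1110018N20Rik (0.142) and Gm826 (0.176). For Pparg they were Nostrin, an endothelial regulator of nitric oxide synthase (0.271), Gimap1 (0.335) and Rbp7 (0.336). The Pparg neighbours differed most from their gene after those of Rxrg, which were Rom1 (0.447), Magix (0.452) and Sh3rf2 (0.480). For Ppargc1a they were Tnni3, cardiac troponin I (0.267), Hopx, a cardiac transcription cofactor (0.281), and Cavin2, a protein of caveolae (0.315). For Ppargc1b they were Jun (0.164), Tnfaip2 (0.167) and Crip2 (0.18), and for Rxra Kremen2 (0.131), Slc34a3 (0.143) and Crxos (0.144). The Rxra neighbours were dim, as Rxra was: the highest group mean among them was 5.70, that of Crxos in mES. For Nrf1 they were Pgs1 (0.109), Snx8 (0.123) and Trim26 (0.126), and for Tfam Snap47 (0.140), Usp14 (0.140) and Dtd1 (0.193). Each list is a description over 9 arrays in 3 groups, in which many genes share the same group pattern.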

How the data were processed

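Biotin-labelled cRNA of 9 samples was read on Illumina bead arrays. Per the file headers, the deposited scanner table gives each probe's average signal intensity on each array, on a linear scale without normalization, beside its detection p-value. The authors' deposited matrix is on the log2 scale, and lumi is the tool named in the submitters' processing notes. The sources used here give neither its version and settings nor the genome build.

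With limma 3.58.1 in R 4.3.3, nec inferred and removed the background by means of the detection p-values (offset 16), followed by quantile normalization and log2. The filter kept 19707 of 45281 probes, those whose detection p was below 0.01 on 3 or more of the 9 arrays. Gene symbols came from the array annotation: 34885 probes had 1 symbol, 18 several and 10378 none. Of the kept probes, 16962 had 1 symbol. Group means were estimated in a single linear model over the 9 arrays (lmFit, then eBayes), with Benjamini-Hochberg adjustment over all kept probes within a comparison and a threshold of 0.05. A gene is counted by its brightest kept probe. The number of arrays limits the precision. The methods were tested on simulated data.

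The members and gene lists were chosen with earlier results of these data known. Named are all members, up to 3 called list genes with the largest change and no overlap between groups, called genes moving against their list where these number 5 or fewer, anchor genes, and the 3 nearest profiles of each member that differed. Polrmt, Ssbp1 and Sp1 in its 3 comparisons were named after their values were seen. Alternatives were another normalization, scaling, offset, filter or probe rule, the authors' matrix, a replicate block, each array left out, and, added after seeing the data, the 2 sets of arrays. Promoters are RefSeq windows of GRCm38.p6.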

Additional observations from a re-analysis of the deposited data

How the results depend on the processing

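Each of the 27 results of a member in a comparison, by its brightest probe, was recomputed under 22 alternatives, and 17 kept direction and side of the threshold under all of them, among them every comparison of Ppara, Ppargc1a and Rxra, Pparg and Ppargc1b against mES, Rxrg in CMa, and Tfam in CMp against mES. With every tested probe, 701 values kept direction and side, 33 lost and 33 gained a call, and 4 reversed. The reversed values were Ppard under median scaling (-0.52 in CMa against mES and -0.54 in CMp against mES), and, in CMa against CMp, Pparg ILMN_1221060 at 1.34 for CMp 1 with CMa 1 and 2 and ILMN_1221594 at -0.62 for CMp 2 and 3 with CMa 3. The cause was not tested. The count of members lower in CMa against CMp was 1, with 0 in the authors' matrix and 0 to 1 with each array left out. The matrix count takes Nrf1 under its own identifier, where the change was -0.18 (adjusted p = 0.104). Under the other identifier, whose values track the brighter Nrf1 probe, the change was -0.39 (adjusted p = 0.0287). Members lower in CMp against mES numbered 2, and 4 under median scaling. Called probes numbered 14490 in CMa against mES, 14012 in CMp against mES and 9275 in CMa against CMp. With 1 probe per gene they were 8315, 8012 and 5651, and with the mean of the kept probes 8263, 8028 and 5621, since fewer features were tested. Tfam in CMa against mES was not called without the detection filter (-0.95, adjusted p = 0.0607). At a detection p under 0.05, Rxra counted as detected on all 9 arrays, not 6, and Rxrg on 8, not 7. By Pearson correlation in place of the root mean square difference, 8 of the 24 nearest genes were the same.

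The labels do not say whether the replicate numbers pair the samples. Deviations of same-numbered CMa and CMp arrays correlated at 0.44, -0.148 and 0.488. CMp 1 and CMp 3 correlated best with the CMa array of their own number, and CMp 2 with CMa 3 (0.466). The 3 deviations within a group are not independent of each other, so these values cannot settle the pairing. With the replicate number as a block, called probes numbered 14787 in CMa against mES, 14289 in CMp against mES and 9702 in CMa against CMp, and all 27 member results kept their call.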

Other observations

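Heart cell types other than cardiomyocytes left traces that differ between CMa and CMp, beyond the endothelial markers given beside Pparg. Fibroblast markers summed to 12.09 to 12.45 in CMa, 14.02 to 14.41 in CMp and 6.95 to 7.05 in mES on the log2 scale, and all 6 were called lower in CMa than in CMp. The tested epicardial and mesothelial markers, Upk3b and Msln, summed to 5.73 to 6.37 in CMa, 8.86 to 9.16 in CMp and 5.57 to 5.60 in mES. Smooth muscle and pericyte markers (3 of 4 tested) overlapped between CMa and CMp, at 9.86 to 10.37 in CMa, 9.81 to 10.29 in CMp and 5.99 to 6.11 in mES, and none was called in CMa against CMp. The part of these cells in the levels of the 9 regulators was not tested.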
